A study of Oryza sativa with 12 samples.

Results

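A set of 87 genes gave transcripts in every spikelet library of the rice cultivar IRGA 428 and almost no reads in any library of the cultivar BR-IRGA 409. The set was chosen from measured values, out of 57174 listed genes. A gene belonged to it when it reached at least 1 CPM (counts per 1000000 gene counts of the library) in each of the 6 IRGA 428 libraries and had at most 3 reads in all over the 6 BR-IRGA 409 libraries. The level in IRGA 428 and the near absence from BR-IRGA 409 are therefore descriptions and carry no test. Of all listed genes, 18789 reached 1 CPM in each IRGA 428 library, and the 87 members are part of these. The same rule with the cultivars exchanged gave 42 genes, at a lower depth of the cultivar in which they had to be absent (105 M counts over IRGA 428 against 190 M over BR-IRGA 409; M, 1000000).

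The libraries came from spikelets of the middle part of the panicle, taken at anthesis, when rice flowers open and shed pollen. They form 4 groups of 3 libraries, each library made from 2 plants: IRGA 428 at 38 °C, IRGA 428 at 29 °C, BR-IRGA 409 at 38 °C and BR-IRGA 409 at 29 °C. The labels call IRGA 428 sensitive to heat and BR-IRGA 409 tolerant of it, and 29 °C was the control temperature. All plants were grown under flooded conditions in a greenhouse, moved to chambers when the panicle emerged and kept at their temperature for 7 h of the day over 3 days. Each type of response is represented by a single cultivar, so the values below compare these cultivars and not sensitive with tolerant rice in general.

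Rice cultivars are known to differ in which genes they carry as well as in how strongly they use them. A gene can be present in the genome of a cultivar and missing from another, which is called presence/absence variation, or present in both and silent in one of them. Families of disease-resistance genes, which often lie in clusters of neighbouring copies, are a well-known example of such variation in plants. Read counts alone cannot tell a missing gene from a silent gene, or from a gene whose reads do not align to the reference because its sequence differs.

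The gene IDs begin with MH and the files do not pair them with names. A RefSeq table of rice genes matched 0 of the 57174 IDs, and so 0 of the 87 members. They therefore appear under their IDs, without a known function or sequence, and the spikelet label could not be checked against marker genes. The digits after MH are taken below to number the chromosome, although nothing in the files says so.

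Library depth was 8.88 to 27.0 M gene counts in IRGA 428 and 7.08 to 75.4 M in BR-IRGA 409. Reads that did not align made up 10.1% to 10.4% of the IRGA 428 libraries and 10.1% to 10.9% of the BR-IRGA 409 libraries, and reads with several alignments 4.08% to 4.90% of the IRGA 428 libraries and 3.70% to 5.34% of the BR-IRGA 409 libraries. For both kinds of read the ranges of the cultivars overlapped. In IRGA 428, control 3 and heat 1 lay close together although their temperatures differed. Over the 87 members, the median absolute log2 difference in CPM was 0.13 between heat 1 and control 3, the smallest of the 15 pairs, and 0.22 to 0.39 for the other pairs. These libraries were together the 2 highest or the 2 lowest of the 6 for 34 members (13 highest, 21 lowest; 39.1%), and for 33.9% of the genes with 1 CPM in each IRGA 428 library.

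The contrast between the cultivars was close to all or nothing. The members together had 104461 counts in IRGA 428 and 39 counts in BR-IRGA 409. The summed level of the 87 members was 966 to 998 CPM in IRGA 428 at 38 °C, 935 to 1129 CPM in IRGA 428 at 29 °C, 0.153 to 0.231 CPM in BR-IRGA 409 at 38 °C and 0.0669 to 0.706 CPM in BR-IRGA 409 at 29 °C. No BR-IRGA 409 library held more than 12 of these reads. The stray reads in BR-IRGA 409 fell on 28 members, and the other 59 members had 0 counts in all 6 libraries. Of the 28, 19 had 1 read, 7 had 2 reads and 2 had 3 reads. The heat libraries held 28 of the 39 reads (71.8%) and 84.2% of the depth of BR-IRGA 409.

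**Figure D1:**
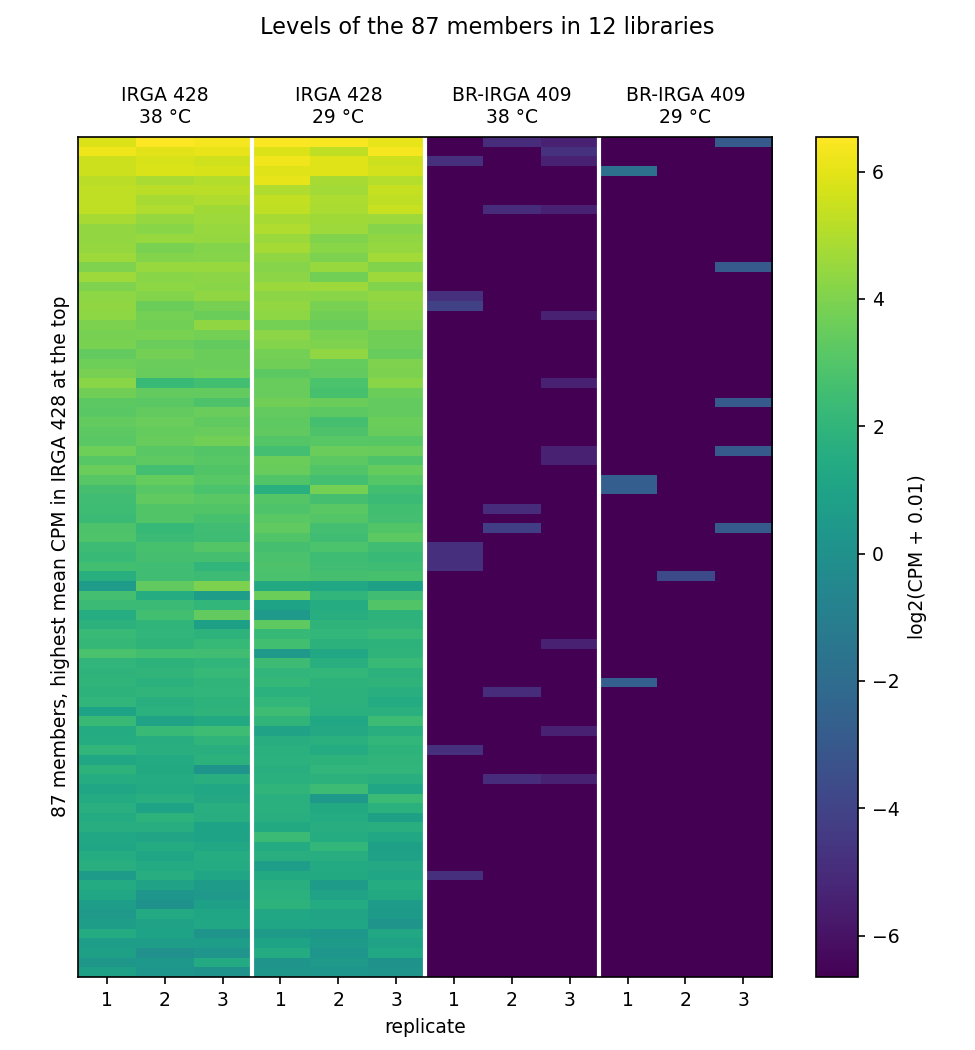
Level of each member (rows, ordered by mean level in IRGA 428) in each of the 12 libraries (columns), as log2(CPM + 0.01). All members are at 1 CPM or more in the 6 IRGA 428 columns, and in the BR-IRGA 409 columns the few lighter cells are members with 1 to 3 reads in all.

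Summed counts in BR-IRGA 409 ran on from the members to the genes used by both cultivars. Among the 18789 genes with 1 CPM in each IRGA 428 library, 59 had 0 counts in BR-IRGA 409, 28 had 1 to 3, and 16 had 4 to 10. A further 62 genes had 11 to 100 counts, 3197 had more than 100 and up to 1000, and 15427 (82.1%) had more than 1000. These ranges of counts differ in width, so their numbers of genes do not show a gap at the limit of 3. At single counts, 2 genes had 3 reads and 4 genes had 4.

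**Figure D2:**
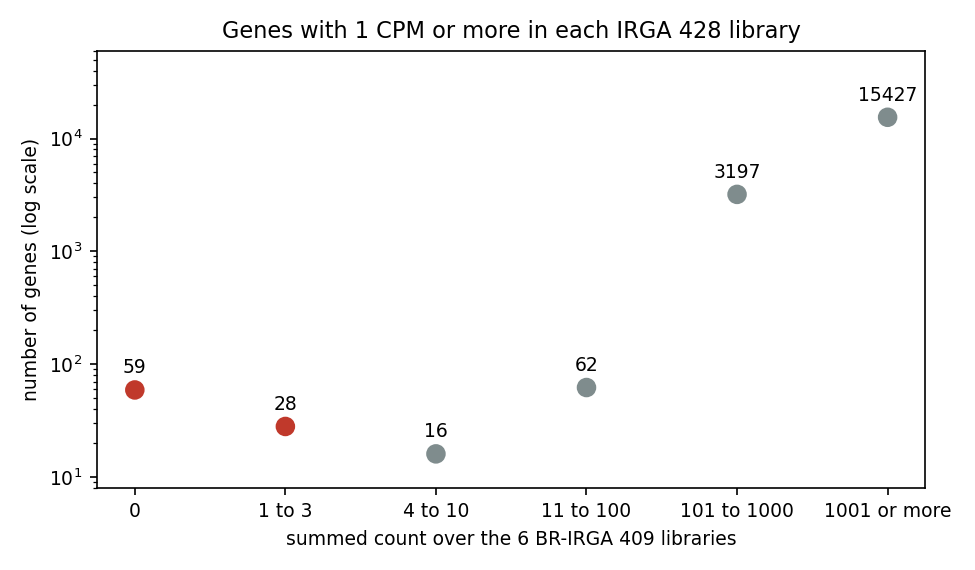
Number of genes (log scale) by their summed count over the 6 BR-IRGA 409 libraries, for the 18789 genes with 1 CPM or more in each IRGA 428 library; red points are the members. The ranges of counts differ in width. The members make up 59 genes at 0 and 28 at 1 to 3 counts, and 15427 genes lie above 1000 counts.

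At the limits of the rule, the values ran on without a step. The members with the lowest CPM in any IRGA 428 library were MH12g0204300, at 1.02 CPM, and MH10g0026900, at 1.04 CPM. Just outside were MH03g0744000, at 0.976 CPM, and MH01g0389100, at 0.968 CPM. At the limit of 3 reads in BR-IRGA 409 stood MH02g0310200 and MH04g0042500, with means of 79.4 and 6.91 CPM in IRGA 428. With 4 reads, 4 genes lay just outside, among them MH02g0052300 and MH12g0172700 at means of 9.10 and 6.80 CPM. Another 9 genes met the limit in BR-IRGA 409 but reached 1 CPM in only 5 of the 6 IRGA 428 libraries, and none of these had 0 counts in the remaining library.

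Members were transcripts of low to moderate level. Their mean CPM over the 6 IRGA 428 libraries ran from 1.28 to 79.4, with a median of 5.77, against a median of 22.1 for all genes with 1 CPM in each IRGA 428 library. Fewer than 5 CPM were found for 39 members (44.8%), against 14.3% of those genes, and 30 members (34.5%) reached 10 CPM, against 71.6%. CPM does not take transcript length into account, so the order of levels between genes is not an order of molecules.

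The most abundant member was MH02g0310200, with 57.6, 93.9 and 83.9 CPM at 38 °C and 89.4, 84.7 and 67.1 CPM at 29 °C in IRGA 428. In BR-IRGA 409 it had 3 reads in all, 2 in heat libraries and 1 in a control library. The ratio of its summed counts per depth, IRGA 428 over BR-IRGA 409, was 5063 (95% interval 1732 to 24555, Clopper-Pearson). Intervals and limits of this kind pool the reads of the 6 libraries of a cultivar, so they reflect counting error alone. They leave out variation between libraries and plants. Reads that carry no molecular identifier may also be copies of the same molecule, which would make the intervals too narrow. The same counts chose the members, and the 95% does not allow for that choice, so these values are no test. MH02g0335900 followed with 75.5, 62.6 and 68.8 CPM at 38 °C and 58.2, 39.1 and 82.7 CPM at 29 °C, and 2 reads in BR-IRGA 409. The groups at 38 °C and 29 °C overlapped for both genes.

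MH03g0754400 had 47.3, 53.3 and 48.5 CPM at 38 °C and 77.4, 59.9 and 46.4 CPM at 29 °C, and MH01g0579300 had 46.0, 55.5 and 53.1 CPM at 38 °C and 60.0, 61.0 and 49.5 CPM at 29 °C. Each had 2 reads in BR-IRGA 409. Means of these genes over the 6 IRGA 428 libraries were 55.5 ± 11.8 and 54.2 ± 5.88 CPM (SD, n = 6), a difference within their spread. MH10g0036800 and MH04g0281100, next in level at 37.8 ± 14.4 and 35.1 ± 5.32 CPM (SD, n = 6), also did not differ beyond their spread. Both had 0 reads in BR-IRGA 409. With 3 counts over the 6 BR-IRGA 409 libraries as the upper limit that a count of 0 allows, they were at least 2211-fold and at least 2252-fold higher in IRGA 428. Over the 59 members with 0 reads, this lower bound ran from 79.6 to 2252, with a median of 282, and it followed the level in IRGA 428 by construction.

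Within IRGA 428, the members varied among libraries slightly more than other genes. The median coefficient of variation over the 6 libraries was 20.9%, against 18.2% for all genes with 1 CPM in each, and the lower level of the members goes with a larger counting error. The highest library exceeded the lowest at least 2-fold for 29 members (33.3%), against 28.6% of those genes. Control 1, the shallowest IRGA 428 library, held the highest value for 32 of the 87 members. The share of all expressed genes highest in control 1 was not counted, so this number is not read as a trait of the members. The normalization factor (trimmed mean of M-values) of control 1 was 1.11, against 0.993 to 1.06 in the other IRGA 428 libraries. Plain CPM leaves this factor out and so runs higher in control 1 for genes in general. The widest ranges were those of MH02g0020200, whose highest CPM was 9.70 times the lowest, and MH11g0534500, with a factor of 7.65.

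Whether the members changed at 38 °C could be tested, because the rule did not use the temperatures, although its minimum of 1 CPM in each library left out genes that heat switches on or off. In these bulk samples, fewer cells of a type and less RNA per cell cannot be told apart. In edgeR (quasi-likelihood F-test, p-values adjusted by Benjamini and Hochberg's method over all 22321 genes tested), 0 of 87 members passed an adjusted p of 0.05, and 0 of all genes did (0%). All 87 members were tested, and their smallest adjusted p was 0.401. At an unadjusted edgeR p below 0.05 there were 2 of 87 members, against 2614 of 22321 genes tested (11.7%). The standard error of the log2 fold change had a median of 0.288 over members and 0.211 over all genes tested. A member thus needed a larger change to reach a given p, and these shares are not read as a weaker response of the members. DESeq2 called 13 genes and limma-voom 0, none of them members. The log2 fold change of 38 °C over 29 °C had a median of −0.02 over the members and 0.00 over all genes tested, and 41 members had a positive value and 46 a negative value.

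**Figure D3:**
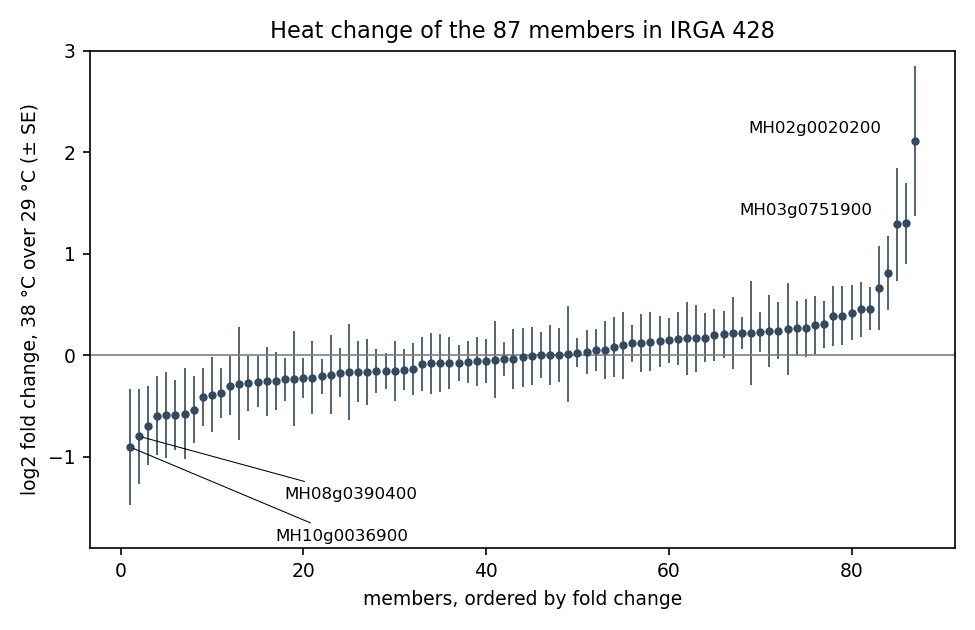
Log2 fold change of 38 °C over 29 °C in IRGA 428 for each member (points, ordered by value) with its standard error (bars), from the edgeR fit of all 12 libraries. Most members lie near 0, and the values run from −0.91 for MH10g0036900 to 2.11 for MH02g0020200.

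MH02g0020200 had the largest positive value. It stood at 1.57, 10.1 and 15.3 CPM at 38 °C and at 2.59, 2.32 and 1.77 CPM at 29 °C. Heat 2 and heat 3 were above all controls, and heat 1 was below all of them. The log2 fold change was 2.11 (SE 0.74, edgeR adjusted p = 0.401). Without control 3 and heat 1, the close pair of libraries, it was 2.50 with an edgeR adjusted p of 0.0283. MH02g0020200 was then the 1 member called of 87, where 5.41% of all genes tested were called.

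MH03g0751900 had 6.84, 5.80 and 5.60 CPM at 38 °C and 1.35, 2.32 and 3.85 CPM at 29 °C, with no overlap between the temperatures. Its log2 fold change was 1.30 (SE 0.40, edgeR adjusted p = 0.401). Without control 3 it was 1.79 (SE 0.35, edgeR adjusted p = 0.0409). MH03g0751900 was then the 1 member called of 87, against 6.68% of all genes tested. MH11g0534500 had 2.90, 5.85 and 10.3 CPM at 38 °C and 1.35, 2.93 and 3.73 CPM at 29 °C, and the groups overlapped through heat 1.

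The largest negative values did not pass the test either. MH10g0036900 had 6.17, 2.90 and 1.67 CPM at 38 °C and 11.8, 4.09 and 5.62 CPM at 29 °C, a log2 fold change of −0.91 (SE 0.57, edgeR adjusted p = 0.511). MH08g0390400 had 3.51, 3.96 and 1.78 CPM at 38 °C and 9.80, 3.84 and 3.79 CPM at 29 °C, a log2 fold change of −0.80 (SE 0.47, edgeR adjusted p = 0.485). For both genes control 1 was the highest library and the groups overlapped. Without control 1 the log2 fold changes were −0.42 for MH10g0036900 and −0.28 for MH08g0390400. MH10g0036900 was at −1.53 without heat 1 and −0.54 without heat 3, and MH08g0390400 was at −0.51 without heat 3. MH10g0036900 is next in ID order to MH10g0036800, which also had its highest value, 66.4 CPM, in control 1.

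Heat and control ranges did not overlap for 7 members, 4 higher and 3 lower at 38 °C. Over all genes tested, 4.05% were higher and 8.23% lower without overlap, so the members' share was close to this background for higher genes and below it for lower genes. Apart from MH03g0751900, the 7 had log2 fold changes between −0.41 and 0.46.

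The members were unevenly placed over the chromosome numbers in the IDs. Chromosome 12 held 28 of the 87 (32.2%), and 5.41% of the 18789 genes with 1 CPM in each IRGA 428 library. Chromosome 11 held 14, chromosome 10 held 10 and chromosome 4 held 9, so these 4 chromosomes held 61 members (70.1%) and 24.5% of the expressed genes. Chromosome 4 alone held 10.3% of the members, near its 8.28% of the expressed genes. On chromosome 10, 9 of the 10 lay between places 170 and 481 of 3590 listed genes, and on chromosome 11, 13 of the 14 lay between places 3567 and 4426 of 4574. No member lay on chromosomes 5 and 7, and 1 lay on chromosome 6. Per 100 expressed genes there were 2.75 members on chromosome 12, 1.34 on chromosome 11 and 1.02 on chromosome 10. The values were 0.579 on chromosome 4 and 0.150 on chromosome 1. The 42 genes expressed only in BR-IRGA 409 lay partly elsewhere. Chromosome 11 held 10 of them (23.8%, against 5.57% of the expressed genes), chromosome 12 held 8 (19.0%, against 5.41%) and chromosome 4 held 6 (14.3%, against 8.28%). Chromosome 10 held 1 (2.38%, against 5.19%) and chromosome 2 held 7 (16.7%, against 12.0%). The expressed genes are those with 1 CPM in each IRGA 428 library, to which genes expressed only in BR-IRGA 409 cannot belong. The 4 chromosomes with the most members held 25 of the 42 (59.5%). Neighbouring genes are not independent, and no test was made of these shares.

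**Figure D4:**
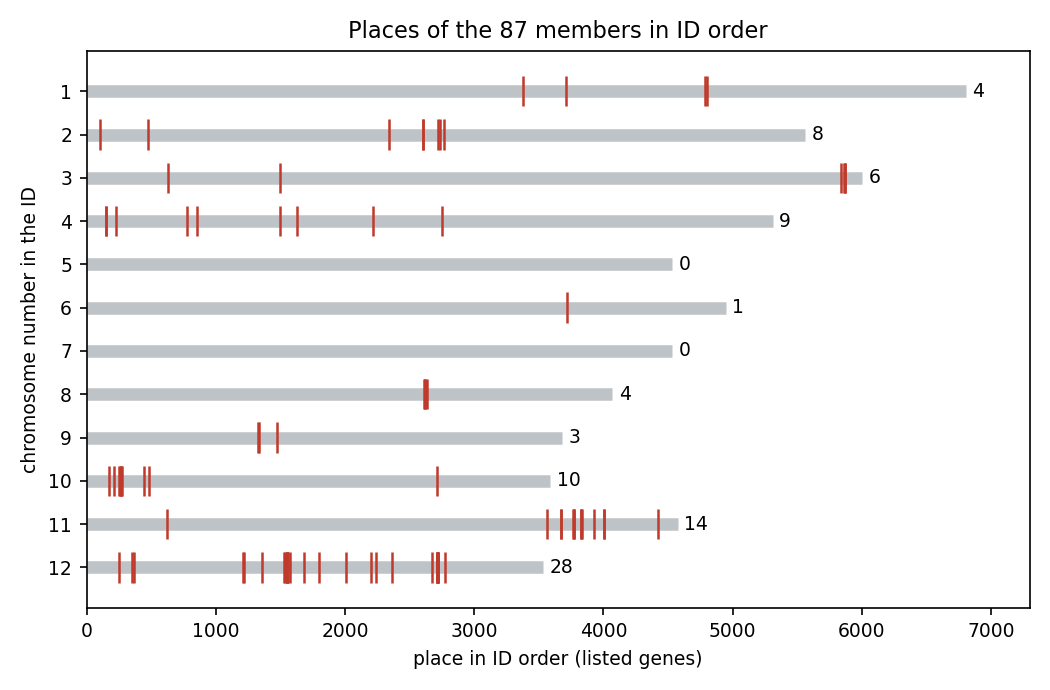
Place of each member (red lines) in the order of the listed IDs of each chromosome number (grey bars; length in listed genes), with the number of members at the right. Chromosome 12 has 28 members, and 9 of 10 on chromosome 10 and 13 of 14 on chromosome 11 lie towards an end of the listed order.

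Members also lay close to each other. IDs were taken in order within a chromosome, where neighbouring IDs differ by 100. Another member stood within 5 places of 32 members (36.8%), whereas 0.953% of the 18789 expressed genes, members included, had another gene of the set that close. Within 20 places the shares were 56.3% and 2.96%. The other 55 members stood alone by the measure of 5 places. The 32 formed 12 runs, of which 8 had 2 members, 2 had 3 and 2 had 5. In 11 instances the next ID after a member was also a member. With the order formed from expressed genes alone, 50 members had another within 5 places. Whether neighbouring IDs are separate genes or parts of a single gene is not stated in the files.

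Both runs of 5 lay on chromosome 12. The run from MH12g0360200 to MH12g0360800 spanned 7 listed genes, of which 2 were not members. MH12g0360400 was its most abundant gene, with 20.4, 11.9 and 14.4 CPM at 38 °C and 21.6, 14.6 and 19.1 CPM at 29 °C, and MH12g0360300 had 18.5, 4.69 and 5.85 CPM at 38 °C and 11.1, 7.08 and 18.4 CPM at 29 °C. In the second of these genes heat 1 and control 3 were the highest libraries, at nearly equal values, so that the temperatures overlapped widely. MH12g0360200, MH12g0360700 and MH12g0360800 had means of 4.40, 2.58 and 3.10 CPM. The 5 genes had 3 reads in all in BR-IRGA 409.

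The run from MH12g0204200 to MH12g0205000 spanned 9 listed genes, 5 of them members. MH12g0204400 had 19.7, 14.0 and 12.0 CPM at 38 °C and 19.8, 13.1 and 18.1 CPM at 29 °C, and MH12g0205000 had 9.50, 8.90 and 7.37 CPM at 38 °C and 12.8, 12.1 and 10.4 CPM at 29 °C. All heat libraries were below all controls in the second of them (log2 fold change −0.37, SE 0.24, edgeR adjusted p = 0.515). MH12g0204200, MH12g0204300 and MH12g0204500 were at means of 2.17, 1.74 and 1.74 CPM. All 5 genes of this run had negative heat values, between −0.60 and −0.04 on the log2 scale, and 0 of them passed the test. BR-IRGA 409 had 2 reads over the 5 genes.

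At most 8 members of chromosome 12 lay within 100 places. Such stretches began at MH12g0356500, around the first run, and at MH12g0202100, around this second run. Not every gene around the second run was missing from BR-IRGA 409. In the 29 listed genes formed by the run and 10 genes on each side, 6 were members and 4 reached 1 CPM in all 12 libraries. Another 7 had 0 counts in all 12. Of the 29, 10 had reads in IRGA 428 and none in BR-IRGA 409, and 1 had the reverse. Around the first run, 27 listed genes held 6 members and 7 genes at 1 CPM or more in all 12 libraries. There, 5 genes had reads only in IRGA 428 and 2 had reads only in BR-IRGA 409. In both stretches the genes with reads only in IRGA 428 include members, such as MH12g0360200 and MH12g0204200, which the rule chose for this. The share of such genes over all listed genes was not counted, so these numbers are not read as a trait of the stretches.

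The genes next to members had not been chosen by the rule, and their difference between the cultivars was tested. They are non-members because the same values did not meet the rule. Genes that differed between the cultivars were more frequent there than over all genes, and mostly higher in IRGA 428. Within 5 places of a member, 196 non-members passed the filter on low counts. At 38 °C, 64 of these (32.7%) differed between the cultivars at an edgeR adjusted p below 0.05. The share was 6.53% over all genes tested, members included, and 6.17% over all non-members tested. Of the 64, 46 were higher in IRGA 428 and 18 lower, where 3.43% of all genes tested were higher and 3.1% lower. At 29 °C, 48 of the 196 (24.5%) were called, 36 higher in IRGA 428 and 12 lower. The share was 4.05% over all genes tested (2.15% higher, 1.9% lower) and 3.67% over all non-members tested.

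At 29 °C, same-numbered libraries of the cultivars deviated together from their group means, which does not establish that they were paired. With the number as a block in a fit of those 6 libraries alone, 22 of 167 neighbours were called (13.2%), against 1.78% of all genes tested. The same fit without the block called 29 (17.4%), against 2.28%. Without BR-IRGA 409 control 2, 31 of 208 neighbours were called at 29 °C (14.9%), against 2.74% of all genes tested.

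The share of called genes was highest directly beside members and lowest far from them, though not in an even order. At 38 °C it was 56.5% of 46 genes directly next to a member, 25.3% at 2 to 5 places, 17.5% at 6 to 10 places, 22.5% at 11 to 20 places, 17.6% at 21 to 50 places, 13.1% at 51 to 100 places and 4.99% beyond 100 places on the same chromosomes. Genes higher in IRGA 428 outnumbered lower ones most within 5 places. In the next place 43.5% were higher and 13.0% lower, at 2 to 5 places 17.3% and 8%, and at 6 to 10 places 6.70% and 10.8%. The pattern was not confined to chromosome 12. At 38 °C, 35.7% of 56 neighbours within 5 places were called there and 12.6% of its other non-members, and on the remaining chromosomes the shares were 31.4% of 140 neighbours and 5.57% of other non-members.

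**Figure D5:**
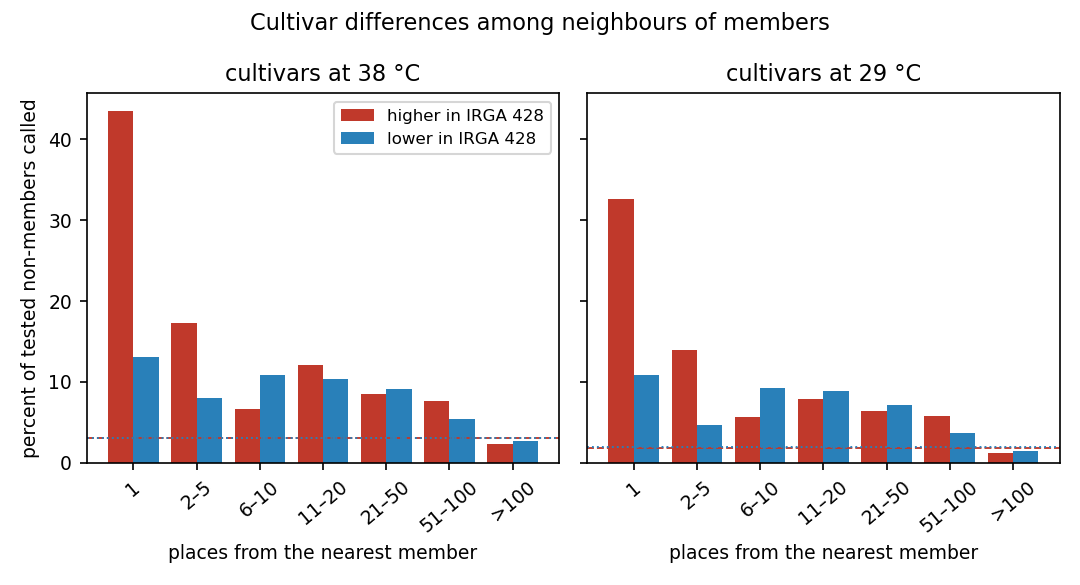
Percent of tested non-members called between the cultivars (edgeR adjusted p below 0.05), higher (red) or lower (blue) in IRGA 428, by their distance in ID order from the nearest member, at 38 °C (left) and 29 °C (right). The dashed and dotted lines give the percent over all non-members, 3.05% higher and 3.12% lower at 38 °C, and the red bars stand highest in the next place, at 43.5% and 32.6%.

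Some of the neighbours that were higher in IRGA 428 were themselves nearly absent from BR-IRGA 409. Of the 46 at 38 °C, 19 had 10 or fewer reads over the 6 BR-IRGA 409 libraries, and 13 were at 1 CPM or more in all 12 libraries. Their median log2 difference, IRGA 428 over BR-IRGA 409, was 5.13. Genes with so few reads in BR-IRGA 409 passed the filter on low counts through their IRGA 428 libraries. The same values were not computed for all non-members called higher in IRGA 428, so they are not read as a trait of neighbours. The 18 neighbours that were lower in IRGA 428 had a median of −1.42, and 12 of them were at 1 CPM or more in all 12 libraries. Of these 18, 3 had 10 or fewer reads over the 6 IRGA 428 libraries. The largest absolute log2 difference was 13.4 among the 18 and 8.60 among the 46. Among all 662 listed non-members within 5 places, 290 (43.8%) had 0 counts in all 12 libraries, against 38.4% of all listed non-members, and 147 (22.2%) had 1 CPM in each IRGA 428 library, against 32.8%. Genes expressed only in BR-IRGA 409 stood near a few members, a larger share than among the expressed genes. Such a gene lay within 5 places of 2 members (2.30%), against 0.468% of the expressed genes, and within 20 places of 10 members (11.5%), against 1.74%. These shares rest on few genes and were not tested.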

How the data were processed

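Each library has its own deposited file of raw counts of reads by gene, without normalization or pooling. Trimmomatic 0.33, HISAT2 2.05 and HTSeq 0.6.1 were used by the authors, per the submitters' processing notes. Parameters, genome build and strand setting were details not given in the sources used here. A gene and an overlapping antisense gene share reads where strand was ignored. Multiply aligned reads did not enter the gene counts, which makes near-identical copies uncertain. The 5 closing lines that name no gene (no feature 6.04% to 10.3% of reads, ambiguous 0.0301% to 0.0326%, low quality 0%, and the unaligned and multiply aligned reads) were kept out; 75.0% to 80.1% of reads were assigned to genes.

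Members were found from plain CPM. Counts were fitted with edgeR 4.0.16 in R 4.3.3 (filterByExpr, trimmed mean of M-values, 1 mean per group over 12 libraries, 8 residual degrees of freedom, robust quasi-likelihood F-test, Benjamini-Hochberg adjustment over 22321 genes, threshold 0.05). The SE is the log2 fold change divided by the root of F. The fit was also run on simulated counts with the same spread for every gene. The real libraries differ from that setting, so the run does not show how the fit behaves on them. No libraries of a group agreed within sampling noise (chi-square per degree of freedom 5.88 to 73.9). Same-numbered libraries of the cultivars at 29 °C deviated together from their group means (Pearson's r of 0.407, 0.45 and 0.279 across 18095 genes). The labels give no pairing. Between the cultivars at 38 °C, matching number 1 with 2, 2 with 1 and 3 with 3 also gave positive values (0.538, 0.242 and 0.122). The values at 29 °C therefore do not establish a pairing. The alternatives tried were a filter on CPM or none, limma-voom (limma 3.58.1), DESeq2 1.42.0 and its size factors, windows and limits, a replicate block, and leaving out each library.

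Genes are named for level (6 highest), heat change (2 largest each way), range over libraries (2 widest), membership of the 2 longest runs, and nearness to the limits of the rule. MH12g0202100 and MH12g0356500 were named after their values were seen. The members, lists and tests were chosen with earlier results of these data known.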

Additional observations from a re-analysis of the deposited data

How the results depend on the processing

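The number of members was 59 to 119 over 19 alternatives, all within 1.5 times of 87: 59 with no BR-IRGA 409 reads allowed, 103 with up to 10, 107 and 62 with minimums of 0.5 and 2 CPM, 119 without the BR-IRGA 409 heat libraries, and 87 to 95 with 1 library left out. The count with another member within 5 places (32) was 19 for the next listed gene, 50 in the order of expressed genes and 19 with members of 0 reads in BR-IRGA 409. By construction, narrower windows hold fewer genes. The 0 members called for heat remained 0 in 19 of 21 alternatives; with 1 library left out it ranged from 0 to 1, and it was 1 without IRGA 428 control 3 and heat 1 together. Of 64 neighbours called at 38 °C, 26 lay within 1 place, and 98 were called within 10; leaving out 1 library gave 56 to 72. Of 48 at 29 °C, the values were 20 and 77, and 31 to 49 with 1 library left out.

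A replicate block left 0 members called for heat, where numbers did not pair the libraries (r of 0.243, 0.64 and −0.132), 61 neighbours at 38 °C (r of −0.396, −0.3 and 0.122) and 36 at 29 °C. A fit of the 29 °C libraries alone called 29 neighbours, or 22 with the block. The fits of 29 °C alone and those without control 3 and heat 1, or without the BR-IRGA 409 heat libraries, were chosen after seeing the data. The heat log2 fold changes of the 4 members named for them kept their signs in 21 alternatives each, over wide ranges: 1.49 to 2.62 for MH02g0020200 (adjusted p 0.0283 to 0.947), 1.00 to 1.79 for MH03g0751900 (0.0409 to 0.947), −1.64 to −0.42 for MH10g0036900 (0.166 to 0.956) and −1.09 to −0.28 for MH08g0390400 (0.276 to 0.959). The cause of these changes was not tested. Depth limits what absence means: a count of 0 in BR-IRGA 409 allows up to 3 reads in 190 M counts.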
